A study of Mus musculus with 6 samples.

Results

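Ribosome biogenesis and nucleolar genes were followed in single cells of pancreatic tumours. The set held 38 genes, given by name and matched by symbol to the deposited feature lists, where each matched 1 of 32285 genes. Tumours came from 6 KPC mice, a model that carries a p53 allele written p53LSL.R172H/+ among its alleles, with Pdx1-Cretg/+ driving recombination in the pancreatic epithelium, so that stromal and immune cells of the host keep the unrecombined alleles. Vehicle mice (n = 3) received corn oil and water. Treated mice (n = 3) received oral trametinib at 1 mg/kg, an inhibitor of the kinases MEK1 and MEK2, with oral hydroxychloroquine at 40 mg/kg, a lysosomal inhibitor of autophagy. Mice were enrolled when ultrasound showed a tumour of 4 to 7 mm, and tissue was taken 24 h after treatment. No age is given in the labels. The question of the design was what the combination does to the cells of these tumours within that time.

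A ribosome is built in the nucleolus, where RNA polymerase I transcribes ribosomal RNA. Small nucleolar ribonucleoproteins (snoRNPs) modify that RNA, and assembly factors cut, fold and export the small and large subunits. The transcription factor Myc, a target of MEK and ERK signalling, is known to raise many genes of this pathway. The set followed here holds Myc, 2 subunits of RNA polymerase I, 3 proteins of box C/D snoRNPs, 4 of box H/ACA snoRNPs and their chaperone, 10 small subunit factors, 12 large subunit factors, 5 other nucleolar proteins and Srm, the spermidine synthase, a Myc target outside the nucleolus.

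The 6 libraries, 1 per mouse, gave 37002 kept cells, from 2144 in vehicle 1 to 10304 in vehicle 3, with a median of 2995.5 to 4701 unique molecular identifiers (UMIs) per cell in vehicle and 8384 to 11182 in treated mice. Vehicle 1 was built with another barcode set: the opening bases of 25.9% of its barcodes occurred in vehicle 2, a share that was 99.8% to 100% between any 2 of the other 5 libraries, and at most 24 whole barcodes were shared by any pair. In tumour cells treated 1 and treated 2 were alike, with a spread of log2 ratios over the 38 genes of 0.11 (SD). It was 0.44 and 0.47 between treated 3 and these mice, and 0.37 to 0.65 among the pairs that include a vehicle mouse. Treated 1 and treated 2 were also closer to each other than to treated 3 in macrophages (0.17, against 0.27 and 0.22) and fibroblasts (0.21, against 0.30 and 0.25). In neutrophils the values were 0.96, against 0.98 and 1.04. In endothelial cells treated 1 and treated 2 were no closer, at 0.37, than either was to treated 3 (0.33 and 0.30). The same held in T and NK lymphocytes (0.92, against 0.68 and 0.54) and B lymphocytes (2.06, against 1.39 and 1.30). Cells were sorted into classes by marker genes, and 7 classes had at least 20 cells in every mouse. The endothelial class carried its 10 markers in all 6 mice. Cells named tumour and ductal epithelium were named from transcripts alone, with no mutation read. Levels are UMIs summed over the cells of a class in a mouse, scaled to a common total (CPM, the usual unit for counts divided by the library total). A gene was called where edgeR's quasi-likelihood test gave an adjusted p under 0.05.

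The summed level of the 38 genes differed as much between vehicle mice as between the groups. Npm1 and Ncl gave the largest parts of this sum, so it follows these genes more than the other members. In tumour and ductal epithelial cells of vehicle mice they averaged 1743 and 671 CPM, where the sum averaged 5119 CPM. In endothelial cells it was 1878, 3055 and 4473 CPM in vehicle 1, 2 and 3 and 2299, 2015 and 2378 CPM in treated 1, 2 and 3. In fibroblasts the sums were 1756, 2668 and 3054 CPM against 2007, 1972 and 2223 CPM. Macrophages and monocytes had 2104, 2525 and 3136 CPM in vehicle mice and a narrow 2079, 2096 and 2083 CPM in treated mice. Vehicle 3 was highest in 6 of the 7 classes, and the groups overlapped in every class but macrophages and neutrophils.

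**Figure D1:**
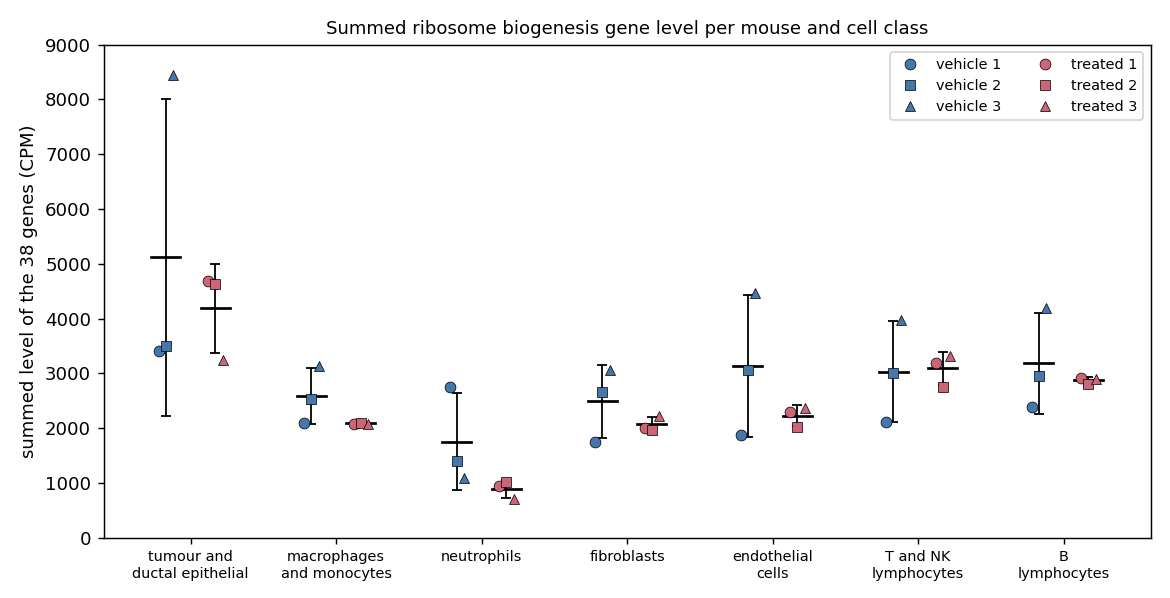
Summed level of the 38 genes (CPM, vertical axis) in each mouse for the 7 cell classes tested; points are mice, horizontal lines group means and bars SD (n = 3). Vehicle 3 reached 8454 CPM in tumour and ductal epithelial cells, and the treated macrophage samples lay between 2079 and 2096 CPM.

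Across the 8 classes with at least 20 cells in each vehicle mouse, the sum was highest in tumour and ductal epithelial cells (5119 ± 2889 CPM, SD, n = 3) and lowest in neutrophils (1752 ± 888 CPM). Between them came B lymphocytes (3181 ± 924 CPM), endothelial cells (3135 ± 1300 CPM), T and NK lymphocytes (3031 ± 925 CPM), macrophages and monocytes (2588 ± 519 CPM), fibroblasts (2493 ± 667 CPM) and conventional dendritic cells (2439 ± 446 CPM). No neighbours in that order differed beyond their spread. Plasma cells, with as many cells in only 2 vehicle mice, lay lower still at 954 and 1023 CPM. Of the 38 genes, over the 7 tested classes, 26 had their highest vehicle mean in tumour and ductal epithelial cells and 22 their lowest in neutrophils. Of the other 12, 5 were highest in B lymphocytes, among them Ddx21, a nucleolar helicase, and 3 in T and NK lymphocytes. Heatr1 and Pes1 were highest in macrophages, Imp4 in endothelial cells and Srm in fibroblasts.

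Endothelial cells had the only members that passed the test. Srm and Nhp2 fell, 2 of 37 members tested, where 0.757% of the 10037 genes tested were called lower. Srm makes spermidine, a polyamine needed for growth. It stood at 49.9, 65.2 and 73.5 CPM in vehicle 1, 2 and 3 and at 34.6, 16.7 and 24.7 CPM in treated 1, 2 and 3. Every treated mouse thus lay below every vehicle mouse, and the log2 fold change was −1.48 ± 0.27 (SE, adjusted p = 0.0343, edgeR). These levels rested on 8 UMIs in vehicle 1, which had 47 endothelial cells, and on 26 to 166 UMIs in the other mice. Srm (ENSMUSG00000006442) lies on chromosome 4, 148591503 to 148594993 (mm10).

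Nhp2, a core protein of box H/ACA snoRNPs, which guide the change of uridine to pseudouridine, stood at 137, 144 and 254 CPM in vehicle and 76.7, 61.7 and 77.4 CPM in treated mice. Again no treated mouse reached the vehicle range, with a log2 fold change of −1.47 ± 0.27 (adjusted p = 0.0359, edgeR). Nhp2 (ENSMUSG00000001056) lies on chromosome 11, 51619735 to 51623714. Fbl, the methyltransferase of box C/D snoRNPs, stood at 74.9, 111 and 125 CPM against 64.0, 55.3 and 59.0 CPM. Its groups did not overlap either, but it missed the threshold (−0.99 ± 0.21, adjusted p = 0.0559).

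By role in endothelial cells, the 3 box C/D proteins had a median log2 fold change of −0.98 and the 4 box H/ACA members −0.94. The 9 tested small subunit factors had a median of −0.63 and the 12 large subunit factors −0.60, with Rrp1b (0.14) the only member above 0. The other nucleolar proteins stood at −0.69 and the 2 polymerase subunits at −0.35. Over all 37 the median was −0.65, against 0.02 over all genes tested, and 36 were below 0. In 14 of 37 members every treated mouse was below every vehicle mouse, where 9.71% of genes tested showed this on the CPM scale (16 members and 13.1% of genes with TMM scaling). The abundant nucleolar proteins did not separate in this way. Npm1, the chaperone nucleophosmin, stood at 462, 973 and 1695 CPM in vehicle and 752, 590 and 788 CPM in treated mice, and Ncl, nucleolin, at 212, 512 and 757 CPM against 426, 434 and 490 CPM. For both, vehicle 1 was the lowest of all mice and vehicle 3 the highest. Myc itself stood at 6.24, 16.1 and 16.4 CPM in vehicle and 16.7, 15.4 and 16.0 CPM in treated mice (log2 fold change −0.03, adjusted p = 0.976), with 1 UMI in vehicle 1.

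The share of dividing endothelial cells differed between the mice too. Cells in sub-clusters rich in mitosis genes made up 2.13%, 59.2% and 21.1% of endothelial cells in vehicle 1, 2 and 3 and 4.89%, 5.14% and 6.75% in treated mice. In vehicle 3 the 38 genes summed to 5679 CPM in those cells and 3456 CPM in the rest, a ratio of 1.64. That was the largest ratio: it was 1.28 in vehicle 2 and 1.36, 1.12 and 1.47 in treated 1, 2 and 3, with 11 such cells in each treated mouse. Vehicle 1 had the lowest share, with 1 such cell, and its Srm and Nhp2 lay above those of every treated mouse. Without the dividing sub-clusters, Srm stood at 51.9, 53.1 and 35.1 CPM in vehicle and 33.2, 17.4 and 24.2 CPM in treated mice. Nhp2 was then 136, 93.5 and 151 CPM against 69.0, 60.2 and 72.6 CPM. The groups still did not overlap for either gene, but 0 members passed, as did 0 of 8995 genes (1082 at an unadjusted p under 0.05), and the median of 36 members was −0.49. Markers of tumour epithelium summed to 87.3, 453 and 276 CPM in vehicle and 59.4, 53.4 and 48.9 CPM in treated endothelial cells, over 12 markers of which 0 to 7 were at 0 in a mouse. The part of these markers and of dividing cells in the result was not tested.

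**Figure D2:**
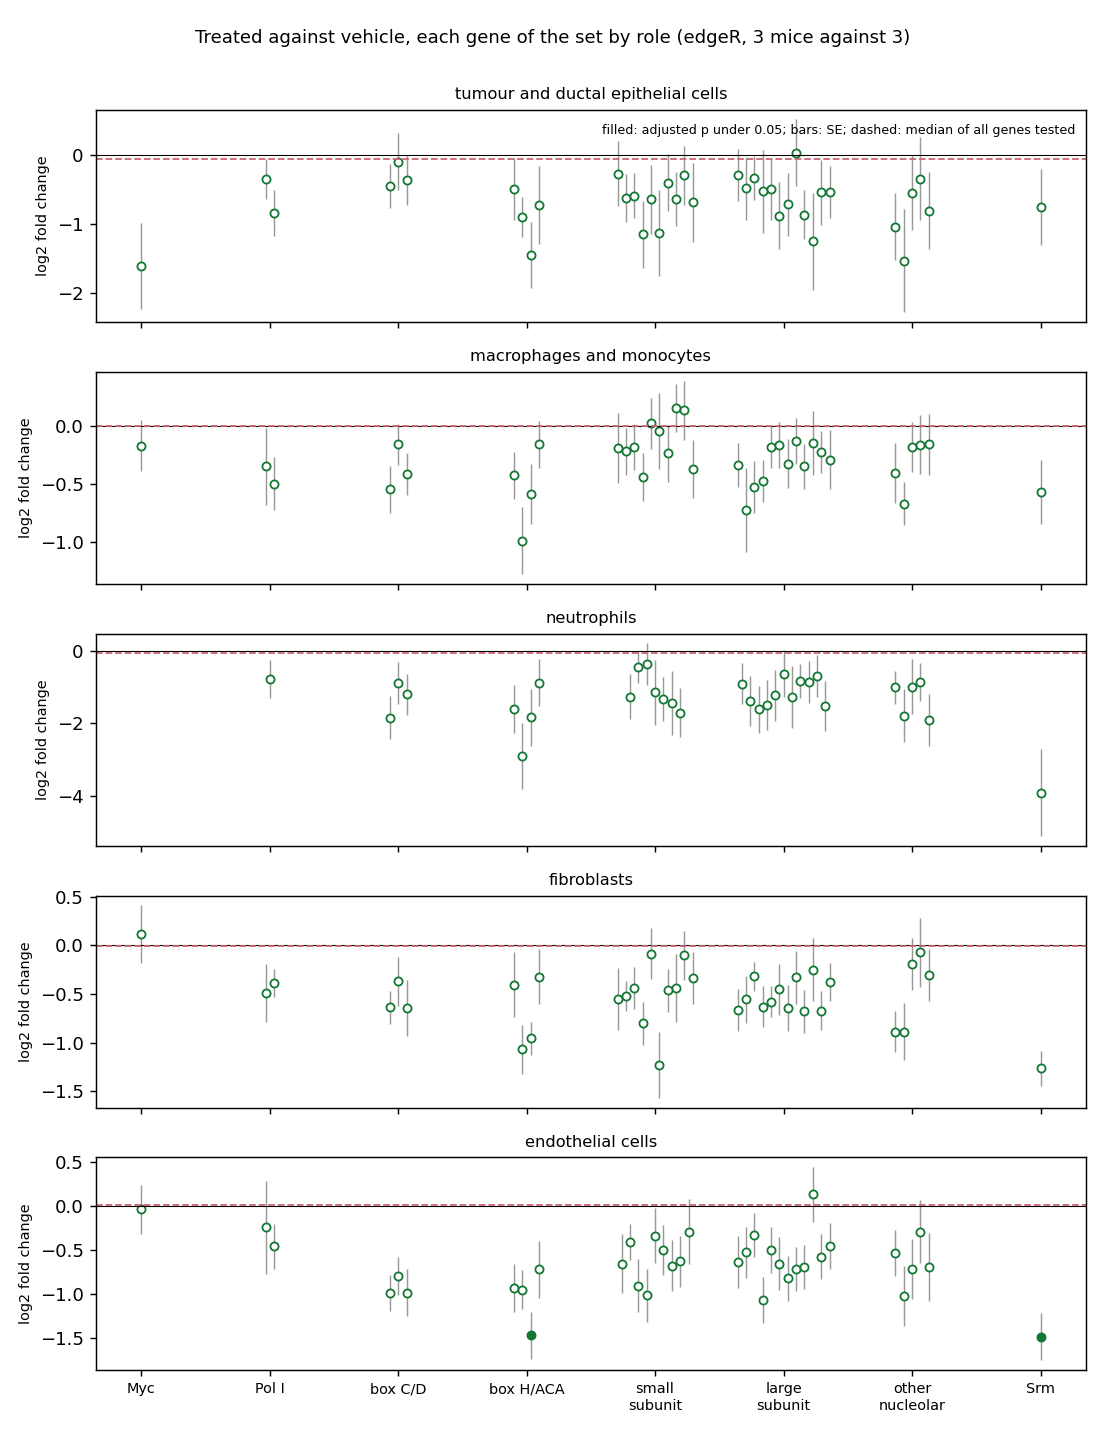
Log2 fold change of each member, treated over vehicle (vertical axis), by role (horizontal axis) in 5 classes, with bars for SE, filled points for adjusted p under 0.05 and a dashed line at the median of all genes tested. The only filled points are Nhp2 and Srm in endothelial cells, and most members lie below 0 in each class.

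The call of 2 members depended on single mice and settings. Without vehicle 1 it rose to 9 members, with 613 genes called in all. Without vehicle 3, and without each treated mouse in turn, it was 0, and it was also 0 with treated 1 and 2 summed. Both genes kept a negative fold change in each of these fits.

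In fibroblasts, 37 of 38 members were below 0, with a median log2 fold change of −0.48 against 0.00 over all 12481 genes tested. None passed in edgeR, where 0% of genes were called lower, with 16 members and 1949 genes at an unadjusted p under 0.05. In DESeq2, which called 1.34% of genes lower, 4 members fell: Srm (adjusted p = 1.07e-05), Nhp2 (0.00119), Gar1 (0.0356) and Ddx21 (0.0402). Srm had the smallest p of the members in this class. It stood at 137, 134 and 133 CPM in vehicle 1, 2 and 3 and at 56.6, 58.6 and 72.6 CPM in treated 1, 2 and 3, with a log2 fold change of −1.26 ± 0.18 (adjusted p = 0.172, edgeR). Every vehicle mouse was close to the others and far above the treated mice. Without dividing sub-clusters the values were 139, 135 and 131 CPM against 54.6, 55.9 and 83.1 CPM. That setting removed 56.6% of the fibroblasts of treated 3 and 2.56% to 14.6% of those of the other mice. Most of the cells removed from treated 3, 237 of 254, came from a sub-cluster whose mitosis genes summed to 373.3 CPM, just past the limit of 4 times the class median of 93.3 CPM, where a sub-cluster of 184 cells of vehicle 2 at 372.7 CPM stayed in.

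Nhp2 in fibroblasts stood at 133, 128 and 151 CPM in vehicle and 78.6, 75.7 and 83.7 CPM in treated mice (−0.96 ± 0.17, adjusted p = 0.172, edgeR). Gar1, another core protein of the same snoRNPs, stood at 48.5, 44.7 and 34.3 CPM against 18.4, 19.5 and 28.8 CPM (−1.07 ± 0.25, adjusted p = 0.196). Ddx21, a helicase that links transcription to ribosomal RNA processing, was at 52.2, 57.0 and 80.7 CPM against 35.4, 40.4 and 39.2 CPM (−0.89 ± 0.21, adjusted p = 0.196). The groups did not overlap for any of these. They did not overlap for 11 of the 38 members in all, where 5.91% of genes had all treated mice below (18 members and 11.4% of genes with TMM scaling). Fbl, at 57.7, 82.3 and 72.5 CPM against 46.9, 45.5 and 59.6 CPM, overlapped, with treated 3 just above vehicle 1. Npm1 (550, 857 and 1137 CPM against 757, 708 and 820 CPM) and Ncl (147, 329 and 428 CPM against 282, 294 and 373 CPM) spread far wider among vehicle mice than among treated mice. Myc was lowest in vehicle 1 (8.24 CPM) and lay between 21.1 and 24.2 CPM in the other 5 mice. Neutrophil markers summed to 2651 CPM in fibroblasts of vehicle 1 and 77.2 to 314 CPM in those of the other mice, and their part in these values was not tested. Mitosis genes summed to 71.4, 1048 and 923 CPM in vehicle and 212, 81.7 and 307 CPM in treated fibroblasts, and their part was not tested.

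**Figure D3:**
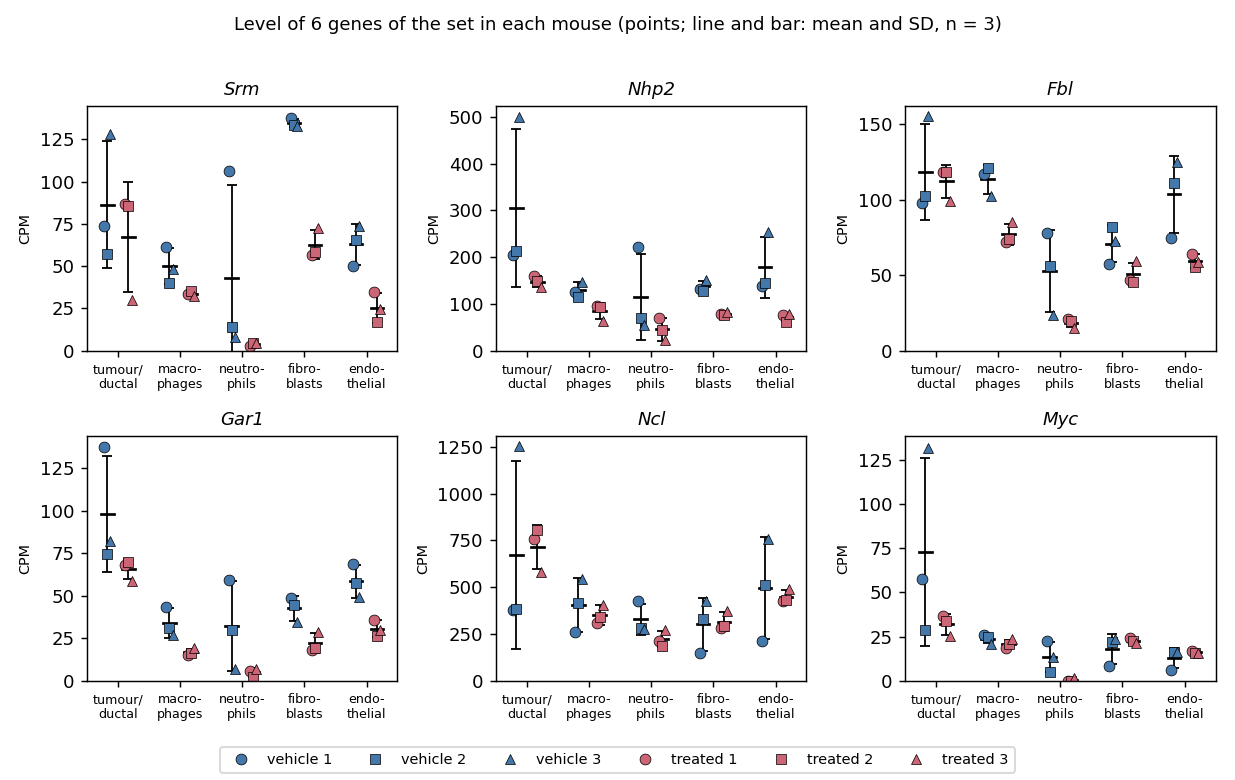
Level of Srm, Nhp2, Fbl, Gar1, Ncl and Myc (CPM, vertical axes) in each mouse for 5 cell classes; points are mice, lines and bars mean and SD (n = 3). Srm in fibroblasts lies between 133 and 137 CPM in vehicle and between 56.6 and 72.6 CPM in treated mice, while Myc and Ncl are highest in tumour cells of vehicle 3.

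In macrophages and monocytes, 0 of 38 members passed in edgeR, where 0.0172% of 11647 genes were called lower, and 0 in DESeq2. At an unadjusted p under 0.05 in edgeR were 4 members (10.5%) and 1201 genes (10.3%). The median was −0.26, against 0.01 over all genes, with 35 members below 0. Lyar, a nucleolar regulator of ribosomal RNA processing, stood at 48.8, 54.6 and 65.3 CPM in vehicle and 36.4, 32.2 and 35.2 CPM in treated mice (−0.67 ± 0.19, adjusted p = 0.264). Gar1 was at 43.7, 30.9 and 27.2 CPM against 15.4, 16.2 and 19.2 CPM (−0.99 ± 0.29, adjusted p = 0.282). Fbl was at 117, 121 and 103 CPM against 72.2, 74.0 and 84.99 CPM (−0.55 ± 0.20, adjusted p = 0.416). For all 3, and for Mrto4, a large subunit stalk assembly factor (39.0, 51.4 and 51.3 CPM against 34.2, 35.2 and 30.2 CPM, −0.47 ± 0.18, adjusted p = 0.43), the groups did not overlap. This held for 14 of 38 members, where it held for 11.1% of genes (8 members and 7.72% with TMM scaling). Srm stood at 61.2, 39.9 and 48.4 CPM against 33.4, 35.2 and 32.2 CPM (adjusted p = 0.526). Npm1, Ncl and Myc overlapped between the groups, with fold changes of −0.16, −0.16 and −0.17. Mitosis genes moved with these values: all 24 were below 0 in macrophages, with a median of −1.78, and dividing sub-clusters held 2.95%, 6.82% and 4.61% of the cells in vehicle and 1.36%, 0.366% and 0.548% in treated mice. Without those sub-clusters the median of the 38 members was −0.29, with 35 below 0 and 0 called.

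Neutrophils had the lowest median, −1.25 over 32 tested members, and every one of these was below 0. None passed in edgeR (0% of 7472 genes called lower; 9 members and 411 genes at an unadjusted p under 0.05) or in DESeq2, and 6 members, Myc among them, were too low to test. Srm stood at 107, 13.8 and 8.22 CPM in vehicle and 2.97, 4.35 and 4.45 CPM in treated mice (−3.92 ± 1.20, adjusted p = 0.811, edgeR). Vehicle 1 held nearly all of it. In that mouse 100 of 488 cells, 20.5%, lay in sub-clusters of dividing precursors whose leading genes included Elane, Mpo, Camp and Ltf, granule genes of immature neutrophils, where the other mice had 0 to 4 such cells. The 38 genes summed to 3821 CPM in these cells and 438.8 CPM in the remaining neutrophils of vehicle 1. Without the dividing sub-clusters, Srm stood at 1.34, 13.8 and 8.28 CPM in vehicle and 2.97, 4.35 and 1.83 CPM in treated mice, so the groups overlapped.

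The other named members followed the same order in neutrophils. Gar1 stood at 59.4, 30.05 and 6.79 CPM against 5.94, 2.18 and 6.68 CPM (adjusted p = 0.811, edgeR). Fbl was at 77.9, 56.3 and 23.6 CPM against 20.8, 19.6 and 15.1 CPM, Npm1 at 824, 277 and 236 CPM against 184, 179 and 126 CPM and Ncl at 424, 284 and 276 CPM against 215, 187 and 271 CPM, each with adjusted p = 0.811. Vehicle 1 was the highest for all 4 genes. The groups did not overlap for 8 of 32 members, where 3.27% of genes had all treated mice below. Without the dividing sub-clusters the median of 19 tested members was −0.40 with 15 below 0, and without vehicle 1 it was −0.55 over 24.

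**Figure D4:**
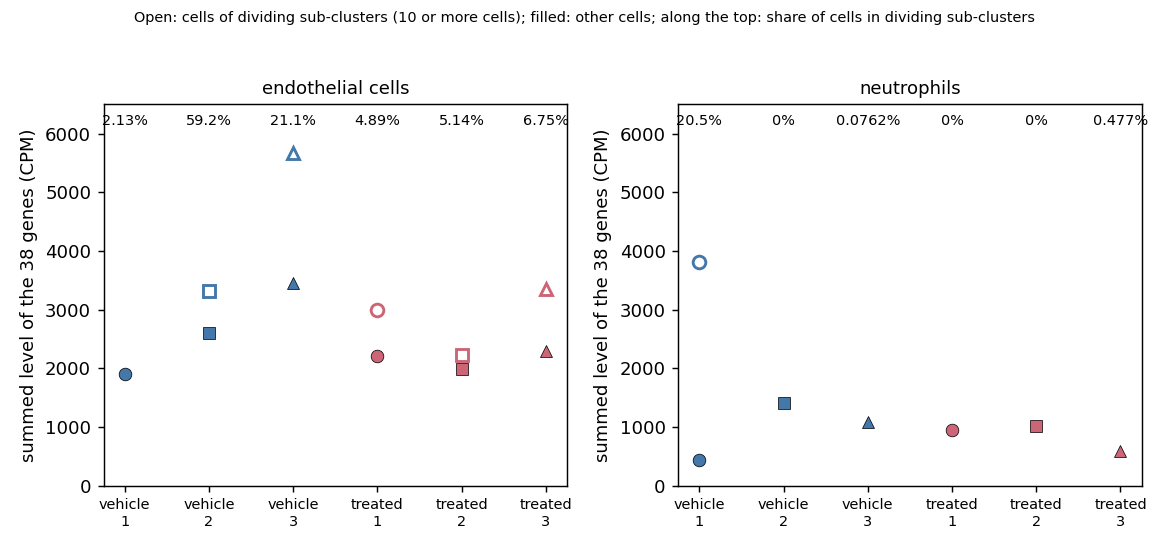
Summed level of the 38 genes (CPM, vertical axes) per mouse in cells of dividing sub-clusters (open, where there were at least 10 cells) and in other cells (filled), for endothelial cells and neutrophils; along the top is the share of the class in dividing sub-clusters. Vehicle 2 and 3 hold 59.2% and 21.1% of endothelial cells there, and vehicle 1 holds 20.5% of neutrophils.

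In tumour and ductal epithelial cells the fold changes of the set rested on 1 mouse. All 38 members were tested, 37 were below 0 and the median was −0.61 against −0.06 over all 14796 genes. None passed in edgeR (0% of genes called lower; 5 members and 1652 genes at an unadjusted p under 0.05), and none did in DESeq2, which called 362 genes. Without vehicle 3 the median was −0.10 and 22 members were below 0. Vehicle 3 had the highest level of 33 of the 38 members, at a median of 1.79 times the mean of the other 5 mice. With library totals in place of TMM factors the median of the members was −0.23 and that of all genes 0.26. On the CPM scale 2 members, Nhp2 and Gar1, had all treated mice below all vehicle mice, where 3.16% of genes did (6 members and 10.2% of genes with TMM scaling).

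Myc in these cells stood at 57.4, 28.8 and 132 CPM in vehicle 1, 2 and 3 and 36.3, 34.0 and 25.4 CPM in treated 1, 2 and 3 (−1.62 ± 0.63, adjusted p = 0.441, edgeR). Vehicle 2 lay within the treated range, and vehicle 3 far above every other mouse. Other genes of the same stretch of chromosome 15 (Myc itself at 61985391 to 61990374, mm10) were also high in vehicle 3. Pvt1, a long non-coding RNA that starts 52.6 kb downstream of the Myc start, stood at 261 CPM in vehicle 3 and between 2.67 and 8.43 CPM in the tumour cells of the other 5 mice. Lratd2, on the other side with its lower coordinate 1166 kb before the Myc start, stood at 292 CPM against 3.14 to 37.1 CPM. The non-coding 9930014A18Rik, on the opposite strand within the span of Lratd2, stood at 39.4 CPM against 0.51 to 3.07 CPM. Of the 5 genes within 2 Mb of the Myc start, Myc included, with a mean of at least 5 CPM, vehicle 3 was highest for 4. It was highest for 13.7% of the 10171 genes at that level. The exception among the 5 was Fam49b, at 63.6 CPM in vehicle 3 and 42.7 to 83.3 CPM in the other mice. The 4 include Myc, whose values were seen before these neighbours were looked at, and the overlapping Lratd2 and 9930014A18Rik. The count is thus a description and no test. In macrophages, Myc of vehicle 3 stood at 20.9 CPM, below vehicle 1 and vehicle 2. Lratd2 there was at 16.5 CPM in vehicle 3 and 0.943 to 6.52 CPM in the other mice, and Pvt1 at 13.4 CPM against 5.14 to 10.7 CPM, so vehicle 3 was highest for both in this class too. In fibroblasts vehicle 3 was highest for Lratd2 (6.81 CPM against 1.31 to 2.98 CPM) but not for Pvt1 (7.89 CPM, with vehicle 2 at 9.16 CPM). In endothelial cells it was highest for Pvt1 (13.9 CPM against 3.86 to 9.03 CPM) but not for Lratd2 (15.4 CPM, with treated 3 at 22.3 CPM). DNA copy number was not measured here.

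Among the downstream members in tumour cells, Npm1 stood at 955, 1211 and 3063 CPM in vehicle and 1548, 1412 and 1028 CPM in treated mice. Ncl was at 377, 384 and 1253 CPM against 758, 806 and 581 CPM. Every treated mouse was above vehicle 1 for both genes, and above vehicle 2 for Ncl, while vehicle 3 was the highest. Their log2 fold changes of −0.81 and −0.34 turned to 0.07 and 0.68 without vehicle 3. Nhp2 did not follow vehicle 3 alone. It stood at 204, 213 and 500 CPM against 159, 149 and 135 CPM (−1.46 ± 0.48, adjusted p = 0.42, edgeR), with all treated mice below. Gar1 was at 137, 74.6 and 82.2 CPM against 68.2, 69.9 and 58.9 CPM (−0.90 ± 0.29, adjusted p = 0.42), and was highest in vehicle 1. Polr1c, a subunit shared by RNA polymerases I and III, was at 57.9, 42.1 and 61.7 CPM against 35.5, 29.9 and 49.9 CPM (adjusted p = 0.441). Srm (73.6, 56.9 and 128 CPM against 86.7, 85.4 and 29.9 CPM) and Fbl (97.9, 102 and 155 CPM against 119, 119 and 99.5 CPM) overlapped.

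The lymphocytes showed no common direction. In T and NK lymphocytes 23 members were tested, 13 were below 0 and 10 above, and the median was −0.02 against 0.01 over all genes. None passed in edgeR, where 0.119% of 5054 genes were called lower, or in DESeq2. At an unadjusted p under 0.05 in edgeR were 193 genes (3.82%) and 1 member (4.35%). That member was Wdr43, a small subunit factor, at 42.4, 35.4 and 48.4 CPM in vehicle and 58.2, 72.4 and 64.7 CPM in treated mice (0.71 ± 0.33, adjusted p = 0.998). All treated mice were above all vehicle mice for it and for Nop14, another small subunit factor, 2 of 23 members, where 4.33% of genes showed this (2 members and 8.41% of genes with TMM scaling). Lyar stood at 42.4, 85.02 and 110 CPM against 52.9, 56.6 and 57.1 CPM (adjusted p = 0.998). Npm1 (0.15), Ncl (0.14) and Fbl (−0.08) had log2 fold changes near 0, with overlapping groups. No tested member had all treated mice below all vehicle mice, as 5.64% of genes did. In B lymphocytes 10 members were tested, with a median of −0.24. None passed in edgeR (0% of 1927 genes called lower, 0 members and 53 genes at an unadjusted p under 0.05) or in DESeq2. Again no tested member had all treated mice below, where 5.09% of genes did. The named members there were Nhp2, at 70.2, 68.9 and 136 CPM against 78.7, 53.6 and 53.4 CPM, and Ddx21, at 112, 127 and 299 CPM against 101, 134 and 125 CPM, both highest in vehicle 3. Npm1 (−0.09), Ncl (−0.21) and Fbl (0.22) overlapped between the groups. The sums of treated 1 and 2 came from 25 and 20 cells. The median was 0.30 over 5 tested members without vehicle 3.

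Whether the responses differ between classes was tested for 5 pairs with a term for class by treatment within mice, and 0 members passed in any pair (edgeR, adjusted over all genes of a pair). Of all genes, 0% passed for tumour cells against macrophages and against fibroblasts, 0.0146% against endothelial cells, 0.0777% for endothelial cells against macrophages and 0% against fibroblasts. Unadjusted p was under 0.05 for 0, 1, 0, 5 and 1 of 38 members in these pairs. Over all genes it was under 0.05 for 1861 of 15273, 1172 of 15316, 1276 of 13738, 1608 of 11589 and 1151 of 11838. The smallest p was that of Srm, whose log2 fold change was lower by 1.10 ± 0.33 in endothelial cells than in macrophages (adjusted p = 0.199), followed there by Nhp2 (lower by 0.83 ± 0.28, adjusted p = 0.244) and Tsr1, a GTPase-like factor of the small subunit (lower by 0.80 ± 0.30, adjusted p = 0.28). For tumour cells against macrophages the smallest p values were those of Tsr1 (−0.73), Rrp12 (−0.98) and Myc (−1.07), with adjusted p from 0.435 to 0.534. Myc had the smallest p for tumour cells against fibroblasts, by −1.51 ± 0.63 (adjusted p = 0.645), and against endothelial cells, by −1.38 ± 0.64 (adjusted p = 0.548). Rrp1b (−0.74) and Polr1c (−0.43) came next against fibroblasts, and Rrp1b (−1.21) and Nop56 (0.64) against endothelial cells. Between endothelial cells and fibroblasts Ddx21 differed by 0.49 ± 0.19 (adjusted p = 0.436), Nhp2 by −0.40 and Rrp1b by 0.62. The responses of Srm in endothelial cells and fibroblasts, −1.48 and −1.26, are thus not shown to differ.

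The other genes of the pathway were taken from lists. The calls below are read against the 0.757% of genes called lower in endothelial cells. Their number also fell to 0 genes of any kind without treated 1, without treated 2 and without dividing sub-clusters. In endothelial cells the 35 other small subunit genes had a median of −0.35, the 38 other large subunit genes −0.40 and the 11 other RNA polymerase I genes −0.26. The 9 other snoRNP genes stood at −0.71 and the 13 of the RNA exosome, which trims ribosomal RNA precursors, at −0.38. None of these genes was called. The 81 cytosolic ribosomal protein genes had a median of −0.80, all 81 below 0 and 0 called, and together took 279908, 174526 and 229092 CPM in vehicle and 138492, 130427 and 152401 CPM in treated mice. Of 25 other Myc targets, 5 fell, of which Nme1 (−1.91, adjusted p = 0.0197, edgeR), a nucleoside diphosphate kinase, Ran (−1.38), Eif5a (−1.18), which needs spermidine for its hypusine modification, and C1qbp (−1.09) had the largest changes. Of 22 S phase genes 8 fell, among them the replication factors Mcm5 (−2.92), Mcm6 (−2.59), Prim1 (−2.56) and Gins2 (−2.36). Of 13 tested mitosis genes 5 fell, among them Ccnb2 (−3.63), Aurka (−3.42), Kif11 (−3.16) and Cdk1 (−2.76). The 9 polyamine genes beside Srm had a median of −0.27, the 9 partners and antagonists of Myc 0.31 and the 16 p53 target genes −0.01, with 0 called in each.

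Outside endothelial cells 0 genes of these 13 lists were called in any of the other 6 classes. Mitosis genes had low medians there all the same, at −1.95 over 24 genes in fibroblasts (15 at an unadjusted p under 0.05), −1.78 over 24 in macrophages (21) and −3.15 over 6 in neutrophils (5), but −0.13 in tumour cells and 0.03 in T and NK lymphocytes. Ribosomal protein genes stood lowest in neutrophils, with a median of −1.50 over 82 genes, and at −0.87 in tumour cells, −0.56 in fibroblasts and −0.55 in macrophages. The snoRNA host genes had medians of −1.60 in neutrophils (7 genes tested), −0.89 in tumour cells, −0.85 in macrophages and −0.47 in fibroblasts. Their medians were −0.56 in endothelial cells, −0.12 in B lymphocytes and −0.08 in T and NK lymphocytes. Outside neutrophils, ribosomal protein UMIs make up much of each total, so these sums enter the CPM scale of every member there. In neutrophils they make up less: most sub-clusters held 30814 to 87971 CPM, and the dividing ones 154443 and 327066 CPM.

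Across sub-clusters, the summed level of the 38 genes was ranked against that of the S phase genes. Over 13 endothelial sub-clusters Spearman's rho was 0.85, over 26 of fibroblasts 0.77, over 55 of tumour cells 0.67, over 37 of macrophages 0.65 and over 16 of neutrophils 0.62. Over 7 of T and NK lymphocytes it was 0.75, and over 6 of B lymphocytes 0.26. These are descriptions: sub-clusters share libraries and depth, and rho with the median UMI count was 0.57, 0.24, 0.39, −0.03, −0.36, 0.89 and −0.31 in the same order. In dividing sub-clusters of tumour cells the members summed to 1.26 to 1.59 times the level of the other tumour cells of the same mouse, in all 6 mice.

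**Figure D5:**
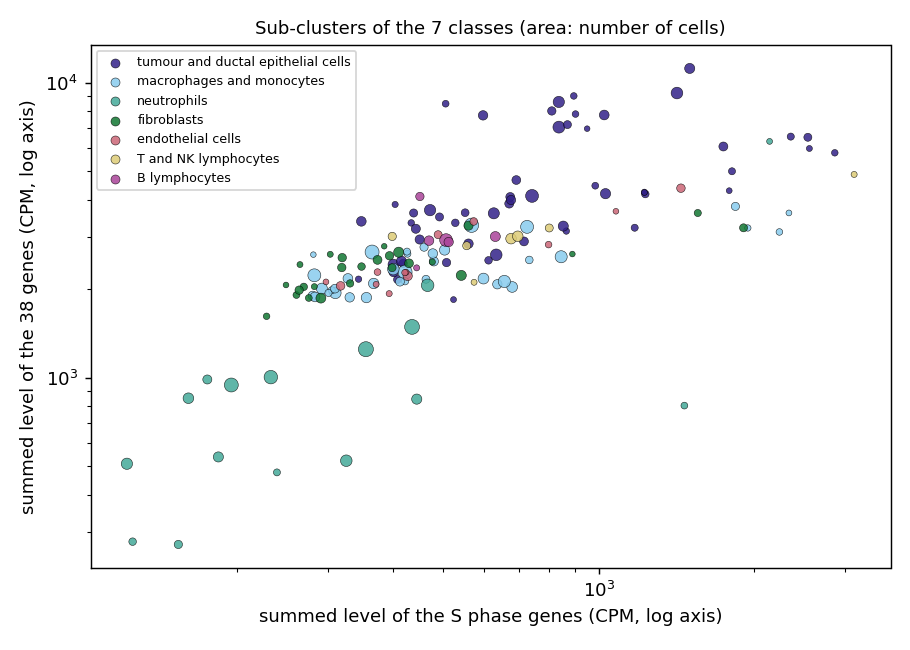
Summed level of the 38 genes against that of the 22 S phase genes (CPM, both axes logarithmic), 1 point per sub-cluster of the 7 classes, with area for the number of cells. Tumour sub-clusters reach 11175 CPM at the upper edge, and the 5 highest hold 66 to 405 cells of vehicle 3 and at most 2 of any other mouse, and neutrophil sub-clusters go down to 271.9 CPM.

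The share of cells with a transcript was also compared at equal depth. After thinning to 2000 UMIs per cell, Srm was found in 20.99%, 20.95% and 21.4% of fibroblasts in vehicle and 10.1%, 11.02% and 9.83% in treated mice, leaving out 25 to 218 shallower cells per mouse. Unthinned, the shares were 35.0%, 63.1% and 59.1% against 37.1%, 37.8% and 58.1%, with median depths of 6359 to 13211 UMIs in vehicle and 12274 to 24649 in treated mice. Nhp2 was found after thinning in 23.1%, 23.3% and 28.1% of endothelial cells in vehicle and 9.42%, 11.8% and 9.72% in treated mice (unthinned 27.7%, 46.1% and 49.1% against 34.7%, 33.2% and 42.3%). Thinning left 26 of the 47 endothelial cells of vehicle 1. Srm in endothelial cells stood after thinning at 7.69%, 10.4% and 8.11% in vehicle and 6.81%, 1.61% and 2.78% in treated mice. The thinned shares of the groups thus did not overlap in any of these comparisons. For Srm in endothelial cells, however, treated 1 lay close to vehicle 1. In tumour cells Myc was found in 8.77%, 4.69% and 21.2% against 7.62%, 5.67% and 3.78% after thinning. Neutrophils, the tested class with the lowest summed level of the 38 genes, held an Srm UMI in 0.202% to 6.67% of thinned cells, with 15 cells at that depth in vehicle 2. Nhp2 was found in 0% to 17.3% of thinned neutrophils, a range that holds the treated endothelial shares. The median depth of neutrophils was 808 to 2139 UMIs.

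Myc and its partner Max bind the E-box CACGTG, which reads the same on both strands. Promoters of 300 bases, from 250 before to 50 after the start (RefSeq, GRCm38.p6, the assembly of mm10), matched 32 of the 38 members by symbol, and none was listed for Npm1, Fbl, Bop1, Srm, Myc and Rrp12. CACGTG stood in 8 of the 32, or 25%, against 8.09% of the 27025 genes with a promoter. It stood in 2 of 32 (6.25%) against 6.86% when the 250 bases before the start were searched alone. Thus 6 of the 8 sites lie in the bases after the start. Nhp2, called in endothelial cells, has none in this window. A match is a description and no evidence of binding. The sites of the 5 carriers with the smallest p in endothelial cells are shown with their flanks, 5′ to 3′ on the strand of the gene, with the E-box in capitals, because they show how the same 6 letters sit in unlike surroundings.
Ltv1: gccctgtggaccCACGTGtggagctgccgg
Nop2: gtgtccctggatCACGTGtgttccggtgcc
Pes1: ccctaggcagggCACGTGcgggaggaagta
Tsr1: tcacttggtgcaCACGTGgactgcagaatg
Utp20: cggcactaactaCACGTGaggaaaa

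The Ltv1 stretch is chr10:13193092-13193121 (minus strand), that of Nop2 chr6:125131811-125131840 (plus), of Pes1 chr11:3963965-3963994 (plus), of Tsr1 chr11:74898092-74898121 (plus) and of Utp20 chr10:88826765-88826789 (minus). The E-box begins 60 bases before the start in Nop2, an RNA methyltransferase of the large subunit, and at base 3 after it in Pes1, which joins Bop1 and Wdr12 in a complex of large subunit maturation. It begins at base 29 in Ltv1 and base 25 in Tsr1, which act in late small subunit assembly, and at base 38 in Utp20. None of the 5 passed in endothelial cells: their log2 fold changes were −0.90 for Ltv1 (adjusted p = 0.14, edgeR), −0.71 for Nop2 (0.159), −0.69 for Pes1 (0.168), −0.68 for Tsr1 (0.239) and −0.63 for Utp20 (0.263).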

How the data were processed

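The 38 genes and all other lists were chosen with earlier results of these data known. Per the submitters' processing notes, reads were processed with Cell Ranger 5.0.1 on mm10. The deposited values are raw UMI counts per gene and barcode. Of 44819 barcodes, those under 500 UMIs, under 250 genes or over 20% mitochondrial UMIs were dropped. Scrublet's own threshold marked between 0% and 0.973% of cells of a library, so the cells of highest score were removed at 0.8% per 1000 cells instead, which left 37002. Cells were clustered with scanpy 1.11.5 into 33 clusters and 203 sub-clusters. A sub-cluster took a class name from at least 3 detected markers. Of these sub-clusters 178 were named, and 3417 cells (9.23%) stayed unnamed and out of the tests. The unnamed cells were uneven between mice: 212, 443 and 62 in vehicle 1, 2 and 3 and 934, 1609 and 157 in treated 1, 2 and 3. In treated 2 they outnumbered the 1209 tumour and ductal epithelial cells. Class names were not reviewed by hand.

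Counts were summed per mouse and class. Treated and vehicle mice were compared with edgeR 4.0.16 (quasi-likelihood, TMM factors, filter on low counts, Benjamini-Hochberg over all genes of a class), and the method was tested on simulated data. Differences between classes used a mouse term. DESeq2 1.42.0, library totals, no filter, left-out mice, kept doublets, 500 genes per cell and cells outside dividing sub-clusters were alternatives. Adding unnamed sub-clusters to the tumour class and summing treated 1 and 2 were chosen after seeing the data. Members past the threshold, those of smallest p and Myc, Npm1, Ncl, Fbl and Srm are named. Each sample is a separate mouse per the labels. UMIs come from transcript ends, so levels are not compared between genes. Depth per class and mouse limits precision: the smallest sums tested were 70789 UMIs (T and NK lymphocytes of vehicle 1) and 71195 UMIs (B lymphocytes of vehicle 1). Part of the genotype is not reported here.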

Additional observations from a re-analysis of the deposited data

How the results depend on the processing

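Every pair, and every class but endothelial cells, had 0 members called in the test reported, and 0 against 0 was counted as unchanged. On that rule the counts of members called stayed within 1.5 times under most alternatives, but in endothelial cells most alternatives moved the count. In endothelial cells, 2 in the test reported, the count was 0 with library totals, 9 with no filter on low counts, 1 with doublets kept, 0 without dividing sub-clusters and 0 with treated 1 and 2 summed; leaving out 1 mouse at a time gave 0 to 9. In neutrophils it was 1 with no filter, and in fibroblasts 4 in DESeq2. For endothelial cells against macrophages it was 2 with no filter, and 0 to 1 with 1 mouse left out. The E-box share was 6.25% of members before the start alone. The cause was not tested. DESeq2 against edgeR called 362 against 0 genes in tumour cells, 282 against 3 in macrophages, 315 against 0 in fibroblasts, 174 against 88 in endothelial cells, 3 against 0 in neutrophils, 12 against 7 in T and NK and 2 against 0 in B lymphocytes. With no filter, genes called were 748 in endothelial cells, 52 in macrophages, 73 in T and NK lymphocytes, 39 in B lymphocytes and 13 in neutrophils, and with library totals 55 in endothelial cells. Replicate numbers did not pair the mice: same-numbered mice correlated at −0.10 to 0.23, with no class above 0.1 in every pair. With the replicate block 2 members were called in endothelial cells and 0 in the other 6 classes, and Ncl turned to 0.034 in tumour cells and 0.026 in fibroblasts. For pairs of classes no block was run, since the mouse term holds the number. Of 748 alternatives for 60 results on named members, 694 kept direction and side of the threshold, 15 lost the call, 9 gained it and 30 changed sign. Only Srm and Nhp2 in endothelial cells held a call in the test reported, so all 15 losses were theirs. On the log2 scale, leaving out 1 mouse at a time moved Npm1 between −1.16 and 0.068 in tumour cells, −0.28 and 0.085 in macrophages and −0.33 and 0.30 in B lymphocytes. Ncl ranged from −0.68 to 0.68 in tumour cells, −0.31 to 0.083 in macrophages, −0.36 to 0.28 in fibroblasts, −0.59 to 0.19 in endothelial cells and −0.29 to 0.068 in B lymphocytes. In these 8 the lowest value came without vehicle 1 and the highest without vehicle 3. In T and NK lymphocytes Npm1 ranged from −0.00320 to 0.43, Ncl from −0.097 to 0.53 and Fbl from −0.26 to 0.00779, and Ddx21 in B lymphocytes from −0.89 to 0.00603. Myc ranged from −0.29 to 0.031 in macrophages, −0.11 to 0.34 in fibroblasts and −0.10 to 0.0877 in endothelial cells. With library totals Ncl became 0.090 in tumour cells and 0.065 in fibroblasts, and Myc 0.057 in endothelial cells. With doublets kept Myc became −0.40 in fibroblasts, Fbl 0.090 in T and NK lymphocytes and Ncl 0.15 in B lymphocytes. Ncl became 0.052 in endothelial cells without dividing sub-clusters, and Myc 0.024 there in DESeq2. Depth limits the lymphocytes of vehicle 1 and the B lymphocytes of treated 1 and 2 most (70789 to 88890 UMIs).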

Other observations

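Outside the 7 classes tested, the 38 genes summed to 954 and 1023 CPM in plasma cells of the vehicle mice with at least 20 such cells, and to 3098 and 4431 CPM in islet endocrine cells of the treated mice with as many. Pericytes and smooth muscle cells had 2163 to 2655 CPM in the 3 treated mice. Pericytes of vehicle 2 (59 cells) stood at 2737 CPM and plasma cells of treated 3 (69 cells) at 875 CPM. No test was made on these classes.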
